A study of Homo sapiens with 9 samples.

Results

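Levels of 10 named long noncoding RNAs (lncRNAs), NEAT1, MALAT1, GAS5, SNHG1, SNHG5, SNHG12, SNHG15, EPB41L4A-AS1, MIR22HG and H19, were followed in 143B cells, an established human osteosarcoma line, during exposure to XD23, a compound that the labels give by its code name alone. The 10 were chosen by gene symbol, with earlier results of these data known, and each matched 1 of the 36810 genes in the deposited table. There were 3 groups of 3 libraries of polyadenylated RNA: control cells at 0 h, cells given 0.5 µM XD23 for 24 h, and cells given 0.5 µM XD23 for 48 h. Neither a vehicle nor untreated cells of the later times are named in the labels, so XD23 and time in culture cannot be told apart. All libraries come from 1 cell line, and whether those of a group were separate cultures is not stated, so the p-values measure the spread between libraries, which may be technical. The comparisons of 24 h and of 48 h with control share the same 3 control libraries.

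Long noncoding RNAs are transcripts that act without being translated into a protein. NEAT1 is the architectural RNA of paraspeckles, nuclear bodies that hold RNA-binding proteins, and MALAT1 is a nuclear RNA of splicing speckles made from the neighbouring gene. GAS5, SNHG1, SNHG5, SNHG12, SNHG15 and EPB41L4A-AS1 carry small nucleolar RNAs (snoRNAs) in their introns, where these guides for the modification of other RNAs are cut out after splicing. The spliced remainder of several such host genes is degraded by nonsense-mediated decay when it is translated, and the transcripts often start with a stretch of pyrimidines, as ribosomal protein mRNAs do. MIR22HG is the host transcript of the microRNA miR-22, and H19 is an imprinted fetal transcript that holds miR-675 and is expressed from the maternal copy.

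The far 3′ ends of the long form of NEAT1 and of MALAT1 are shown. Both are known to be kept stable without a poly(A) tail, by U-rich stretches that fold with an A-rich tract into a triple helix. Both genes lie on chromosome 11, on the plus strand. The sequences below were read from GRCh38 with GENCODE 29 transcripts, at chr11:65445453-65445540 for NEAT1 and chr11:65506031-65506116 for MALAT1, and the capitals mark the 3 parts of the element.
NEAT1: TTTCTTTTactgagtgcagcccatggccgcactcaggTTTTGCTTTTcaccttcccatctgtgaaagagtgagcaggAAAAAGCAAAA
MALAT1: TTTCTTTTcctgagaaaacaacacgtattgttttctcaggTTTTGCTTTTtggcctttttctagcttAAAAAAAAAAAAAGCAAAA
The NEAT1 element ends at the last base of the annotated long transcript, and the MALAT1 element ends 353 bases before the end of the annotated one. The search asked for the first U-rich part and then the second, spelled as the first and second capitals of both sequences, then a run of at least 4 A followed by GCAAAA, in this order within 120 bases and on the transcript's own strand alone. It matched 2 of 200764 GENCODE transcripts of at least 120 bases (0.001%), 1 of each gene, while the A-rich part alone was in 1.24%. Capture on oligo(dT) beads can take up such ends through internal A-rich stretches, so the levels of NEAT1 and MALAT1 here are those of captured RNA.

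The starts of 4 snoRNA host genes are shown because a start in pyrimidines is the feature for which this class is known. They come from RefSeq (GRCh38.p14) and run from 10 bases before to 40 bases after the annotated start. The capitals mark the longest run of C or T in the first 20 transcribed bases. The positions, all but the last on the minus strand, are chr11:62855846-62855895 for SNHG1, chr1:173869006-173869055 for GAS5, chr1:28581834-28581883 for SNHG12 and chr5:112160516-112160565 (plus strand) for EPB41L4A-AS1.
SNHG1: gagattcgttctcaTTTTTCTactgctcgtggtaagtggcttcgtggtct
GAS5: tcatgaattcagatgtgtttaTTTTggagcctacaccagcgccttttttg
SNHG12: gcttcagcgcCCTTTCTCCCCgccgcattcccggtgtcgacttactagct
EPB41L4A-AS1: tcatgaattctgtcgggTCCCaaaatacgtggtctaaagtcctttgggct
The run held 7 bases in SNHG1, 11 in SNHG12 and 4 in both GAS5 and EPB41L4A-AS1. In SNHG5, whose start is not printed here, it held 5. The run began at the annotated first base in SNHG12 and SNHG5, and further inside in SNHG1, GAS5 and EPB41L4A-AS1. A run of at least 7 was found in 12% of 35116 RefSeq starts, with a median run of 4. RefSeq starts were matched for 8 of the 10 genes, all but NEAT1 and SNHG15. These runs describe the RefSeq starts, which can differ from the start used in these cells. The GAS5 window lies wholly upstream of the GAS5 gene as GENCODE 29 gives it, so its run is not from that gene model.

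The libraries held 18341542 to 22901830 fragments, as worked back from the deposited values. Levels are in FPKM, fragments scaled to the summed exon length of the gene and to the depth of the library, so they can be compared between genes, within what the annotated length allows. Of the osteoblast and mesenchymal markers, VIM (296.9 to 389.4 FPKM), SPARC (27.6 to 43.3 FPKM) and RUNX2 (4.06 to 6.61 FPKM) were present, while COL1A1, COL1A2, ALPL, BGLAP and SP7 stayed below 1 FPKM. SPARC averaged 28.2 FPKM at 48 h and 41.9 FPKM in control (log2 fold change -0.56 ± 0.04, limma adjusted p = 4.94e-05), RUNX2 4.19 FPKM at 48 h and 6.34 FPKM in control (-0.50 ± 0.05, adjusted p = 0.000189) and VIM 357.1 FPKM at 48 h and 304.1 FPKM in control (0.23 ± 0.09, adjusted p = 0.0935). The part of these markers in the results was not tested. Epithelial KRT18, KRT8 and EPCAM summed to 139.3 to 153.4 FPKM at 48 h, against 184.1 to 192.7 FPKM in control libraries. Most of this was KRT18, which averaged 123.4 FPKM at 48 h and 156.6 FPKM in control. Of the listed markers, epithelial CDH1 and leukocyte CD3E were not matched to a gene here. Leukocyte markers summed to at most 0.226 FPKM and endothelial markers to at most 0.734 FPKM in any library. The third 24 h library stood apart from the rest, at 24.7 on the second principal component where the other 8 lay between -9.06 and 6.96, and its ribosomal protein genes averaged 8.09 on the log2(FPKM + 1) scale against 7.71 to 7.87 elsewhere. Of the 8 lncRNAs tested, 6 had their highest value in it, all but NEAT1 and MIR22HG, and results that rest on it are given with and without it. How many of all genes had their highest value in it was not counted.

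On the deposited values the name abundant did not hold for SNHG5 and H19. Among 9599 genes of the lncRNA types of GENCODE 29, ranked by their mean over the 9 libraries, GAS5 was 4th at 68.1 FPKM, SNHG1 7th at 43.0 FPKM and MALAT1 10th at 36.9 FPKM. The lncRNA ranked 1st was NORAD, a cytoplasmic RNA that binds Pumilio proteins, at 158.4 FPKM. EPB41L4A-AS1 was 32nd, SNHG15 43rd, NEAT1 111th, MIR22HG 126th and SNHG12 170th. SNHG5 was 2770th and H19 7913th, and neither reached the 1 FPKM in 3 libraries that the test asked for. The value of SNHG5 rests on 58 to 102 fragments a library and on a length of 12604 bases, the smallest that gave whole fragments. The same fragments divided by its GENCODE 29 length would give group means of 1.24 to 1.55 FPKM. How many of them lie within that shorter model is not known, so the rank of SNHG5 and its place below the filter may depend on the length.

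**Figure D1:**
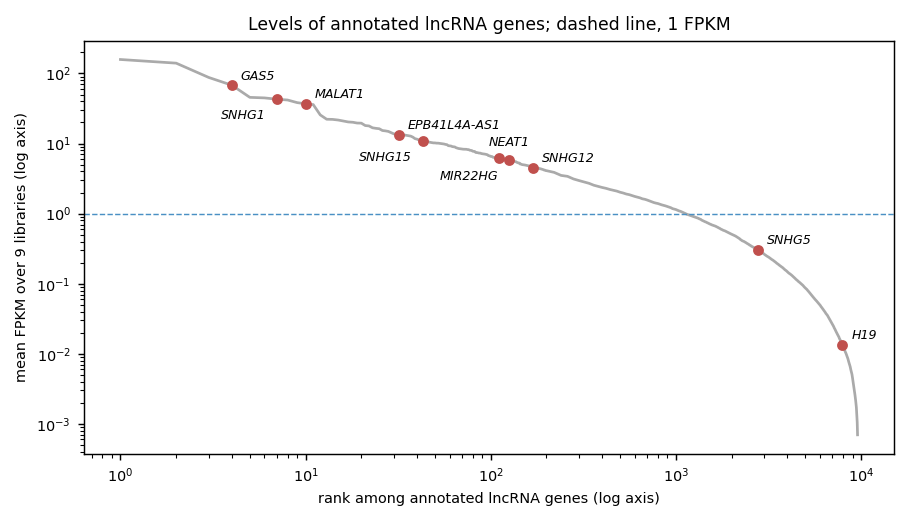
Mean FPKM over the 9 libraries against rank for all annotated lncRNA genes (grey line, both axes logarithmic), with the 10 named RNAs as red points and a dashed line at 1 FPKM. GAS5, SNHG1 and MALAT1 lie among the first 10 ranks, while SNHG5 and H19 lie below the line.

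In every control and 24 h library the order of the levels was the same: GAS5, SNHG1, MALAT1, EPB41L4A-AS1, SNHG15, NEAT1, MIR22HG, SNHG12, SNHG5 and H19. In all 3 libraries at 48 h MALAT1 stood above SNHG1, and in 2 of these 3 MIR22HG stood above NEAT1. NEAT1 and MIR22HG are neighbours in the order whose values overlapped at 48 h, at 5.46 to 6.60 FPKM for NEAT1 and 5.77 to 6.60 FPKM for MIR22HG. FPKM spreads the fragments of NEAT1 over 22767 bases of exon, the whole long transcript. Its low FPKM still rests on 2501 to 3357 fragments a library, against 2815 to 4583 for SNHG1 over 3970 bases. Which of these fragments come from the short form of NEAT1 is not known, so its FPKM and rank hold for that length alone. Fewer cells that make an RNA and less of it per cell cannot be told apart in these bulk libraries.

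**Figure D2:**
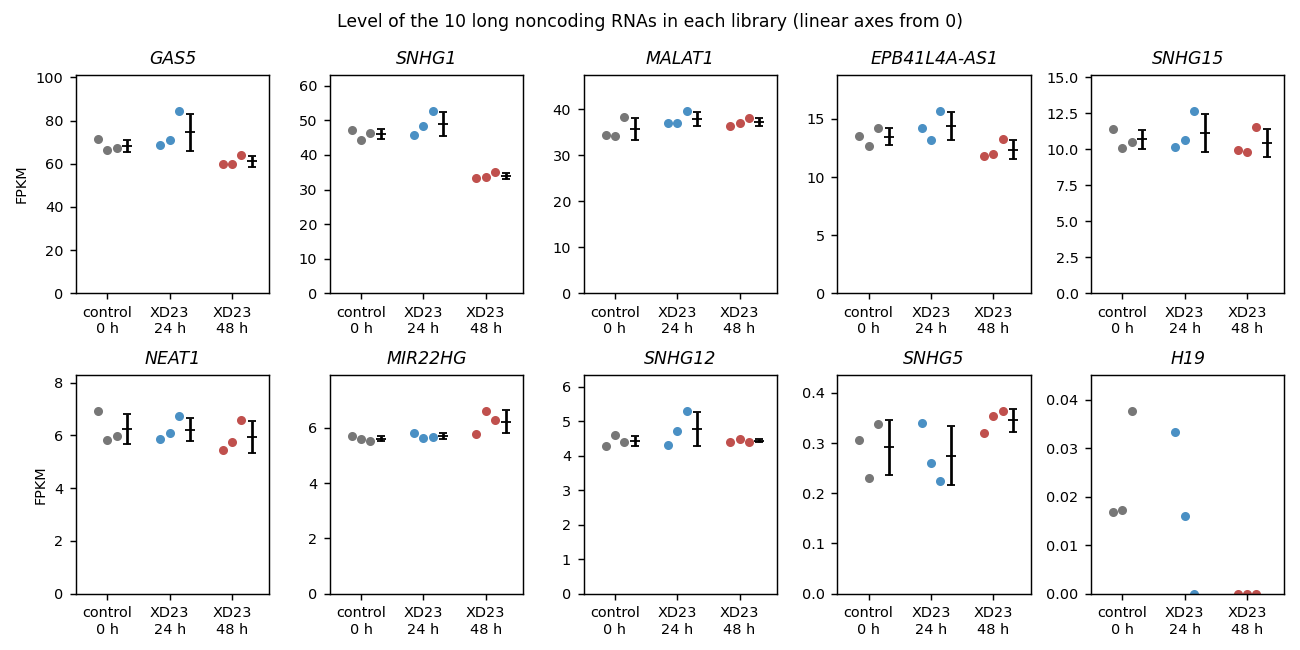
FPKM of each of the 10 RNAs in every library, by group (control 0 h, XD23 24 h, XD23 48 h), with the mean and SD of the 3 libraries as a black bar for all but H19; axes are linear, start at 0 and differ between panels. The SNHG1 points at 48 h (33.4 to 34.9 FPKM) lie below all 6 others, and the H19 points stand for 0 to 2 fragments.

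After 48 h with XD23, SNHG1 fell and no other of the 8 tested RNAs was called relative to control. Testing used limma on log2(FPKM + 1) over 13657 genes, with calls made at a Benjamini-Hochberg adjusted p under 0.05. Of the 8, 0 rose, 1 fell and 7 were not called. Over all genes tested 28.5% were called, 13.3% as higher and 15.2% as lower, so 1 of 8 is near the background. With median-of-ratios scaling in place of the deposited scale, the calls over all genes were 2149 higher and 1616 lower, where the deposited scale gave 1811 and 2080. The median log2 fold change was -0.05 for the 8 and -0.02 for all genes tested.

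SNHG1 (ENSG00000255717, chr11:62851988-62855914, minus strand) hosts several C/D box snoRNAs. It stood at 47.2, 44.3 and 46.3 FPKM in the control libraries, at 45.7, 48.4 and 52.7 FPKM at 24 h and at 33.4, 33.6 and 34.9 FPKM at 48 h. The 48 h libraries were all lower than the 6 others, and the control and 24 h values overlapped. The mean was 34.0 ± 0.823 FPKM at 48 h and 46.0 ± 1.47 FPKM in control (SD, n = 3 each), a level that fell by 26.1%. The log2 fold change was -0.42 ± 0.05 (SE; 95% interval -0.54 to -0.30; limma adjusted p = 0.00071). Against 24 h it was -0.51 ± 0.05 (limma adjusted p = 0.00024), and -0.46 without the third 24 h library (adjusted p = 0.00018). SNHG1 remained called in both comparisons under all 20 alternatives run, with adjusted p of at most 0.0046 against control and 0.00248 against 24 h.

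GAS5 (ENSG00000234741, chr1:173863900-173868882, minus strand) encodes the snoRNA host first described as an RNA of growth-arrested cells, and its spliced form is a known target of nonsense-mediated decay. It stood at 71.5, 66.3 and 67.1 FPKM in control, 68.5, 70.9 and 84.4 FPKM at 24 h and 59.8, 59.8 and 64.2 FPKM at 48 h. The 48 h libraries were all lower than the 6 others, and the third 24 h library was higher than every other. Against control the log2 fold change at 48 h was -0.16 ± 0.07 (95% interval -0.33 to 0.02), which was not called (limma adjusted p = 0.158). It was called with array weights (adjusted p = 0.0255), in a fit to only the 2 groups (0.0305) and without the third 24 h library (0.0189). These settings also called more of all genes, 5231, 4811 and 5136 in turn, where the main fit called 3891. Against 24 h GAS5 fell by 0.28 ± 0.07 on the log2 scale (limma adjusted p = 0.0221). Without the third 24 h library the log2 fold change was -0.18 (adjusted p = 0.0165), and the call ended with no filter (0.0685), in a fit to only the 2 groups (0.0517) and without the first (0.0684) or the second (0.0743) library at 48 h.

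SNHG1 also stood lower relative to GAS5 within each library. The ratio of the FPKM of SNHG1 to that of GAS5 was 0.660, 0.668 and 0.691 in the control libraries, 0.667, 0.683 and 0.624 at 24 h and 0.559, 0.563 and 0.544 at 48 h. The 48 h ratios did not overlap with those of the other groups. With 3 against 3 libraries an exact two-sided permutation test cannot give a p below 0.1, so none is printed.

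The other 3 tested snoRNA hosts of the 10 were not called at 48 h against control. EPB41L4A-AS1 (ENSG00000224032, chr5:112160526-112164276, plus strand), which lies wholly within EPB41L4A on the other strand, stood at 13.6, 12.7 and 14.2 FPKM in control, 14.3, 13.2 and 15.7 FPKM at 24 h and 11.8, 12.0 and 13.3 FPKM at 48 h. Its groups overlapped at 48 h and control, and the log2 fold change was -0.12 ± 0.07 (limma adjusted p = 0.249). Against 24 h it was -0.20 ± 0.07 (limma adjusted p = 0.054), and 5 of 20 alternatives called it, with adjusted p of 0.012 to 0.0406. SNHG15 (ENSG00000232956, chr7:44983023-44986961, minus strand) stood at 11.4, 10.1 and 10.6 FPKM in control, 10.2, 10.7 and 12.7 FPKM at 24 h and 9.95, 9.83 and 11.6 FPKM at 48 h. All 3 groups overlapped, and the log2 fold change at 48 h against control was -0.03 ± 0.09 (limma adjusted p = 0.807). SNHG12 (ENSG00000197989, chr1:28578538-28583132, minus strand) stood at 4.29, 4.60 and 4.41 FPKM in control, 4.31, 4.72 and 5.29 FPKM at 24 h and 4.42, 4.50 and 4.41 FPKM at 48 h. Its 48 h values all lay within the range of control (log2 fold change 0.00 ± 0.06, 95% interval -0.14 to 0.14).

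**Figure D3:**
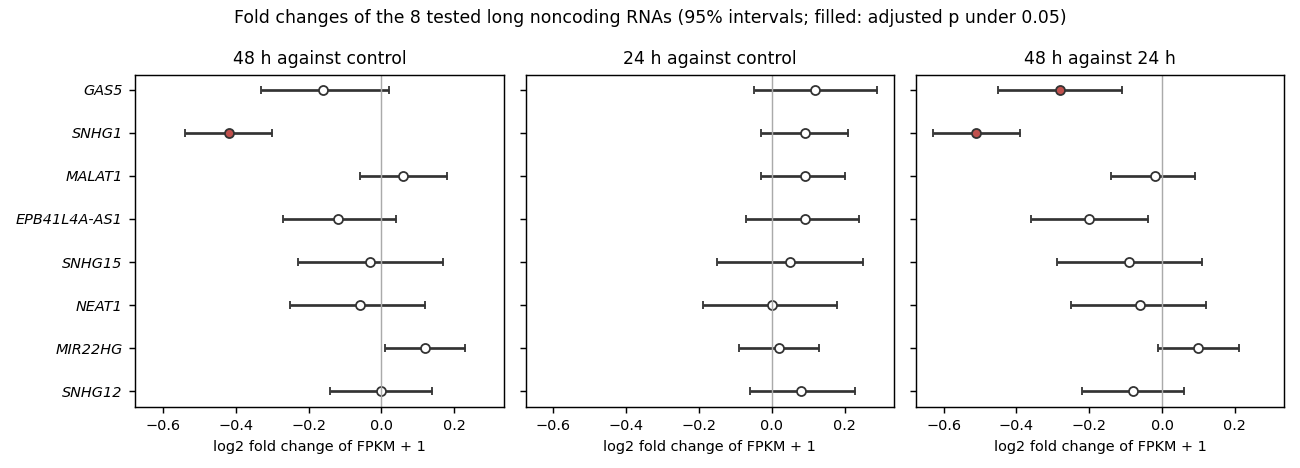
Log2 fold change of FPKM + 1 with its 95% interval for the 8 tested RNAs in 3 comparisons (48 h against control, 24 h against control, 48 h against 24 h); filled points have an adjusted p under 0.05. SNHG1 is filled at 48 h in both comparisons (-0.42 and -0.51), and GAS5 against 24 h alone (-0.28).

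Among 21 other noncoding snoRNA host genes on a list, 20 were tested, and at 48 h against control 6 fell, 0 rose and 14 were not called. The list's median log2 fold change was -0.17, and 18 of 20 values were below 0, beside a median of -0.02 and 15.2% called lower over all genes. The 6 that fell, named after their values were seen, were SNHG17 (-0.33 ± 0.06, limma adjusted p = 0.00349), SNHG10 (-0.31 ± 0.08), DANCR (-0.30 ± 0.04, adjusted p = 0.0013), SNHG4 (-0.27 ± 0.04), SNHG16 (-0.26 ± 0.04) and SNHG20 (-0.26 ± 0.07). SNHG30 had the lowest value (-0.34 ± 0.12) without being called, and SNHG19 (0.23 ± 0.22) and SNHG25 (0.08 ± 0.18) the highest. SNHG25 rested on 4 to 10 fragments a library.

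Against 24 h, 8 of the 20 fell and 0 rose, with a median log2 fold change of -0.23. Over all 13657 genes 32.3% were called in that comparison, 16.3% as lower. Without the third 24 h library, an alternative added after the data were seen, 9 fell against control, the same 6 among them, and 7 fell against 24 h, of which 6 were among the 8. Calls over all genes against control grew too in that refit, to 5136 of 13543 genes, 2771 of them lower. The main fit called 3891 of 13657, 2080 of them lower. The 18 of 20 below 0 against 24 h share the 48 h libraries with the comparison with control. At the level of the class, 1329 annotated lncRNA genes were tested at 48 h against control, of which 62 rose and 178 fell (18.1% called), with a median of -0.09. Over all genes in that comparison 28.5% were called, 15.2% as lower.

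**Figure D4:**
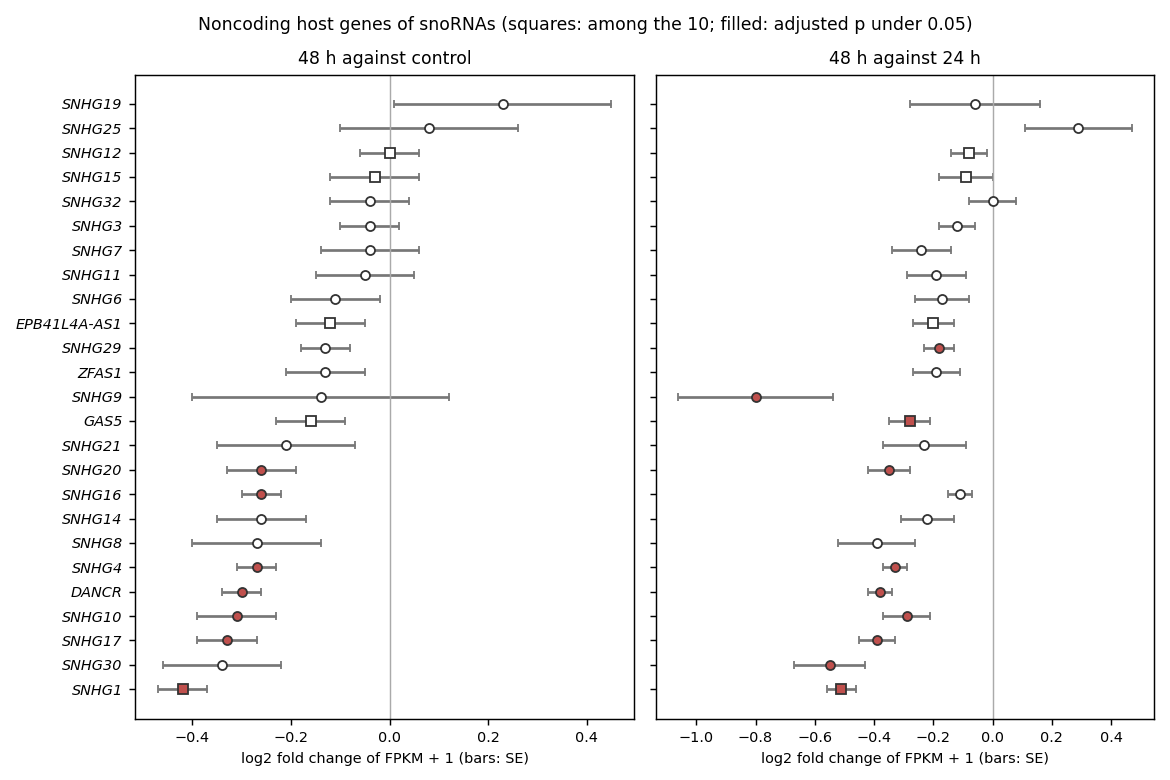
Log2 fold change of FPKM + 1 with its SE for 25 noncoding snoRNA host genes at 48 h against control (left) and against 24 h (right); squares are the 5 among the 10 named RNAs, circles the 20 others, and filled symbols have an adjusted p under 0.05. SNHG1 is lowest on the left (-0.42), and every filled symbol on both sides lies below 0.

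The snoRNAs themselves cannot be read from these libraries. Of 28 snoRNAs and microRNAs listed as lying within the 10 genes, 4 had a row in the table. SNORD79 had 0 to 4 fragments a library, SNORD27 0 to 1, SNORD99 0 to 16 and SNORA13 3 to 12. SNORD99 and SNORA13 were tested and not called, and libraries of fragmented polyadenylated RNA are not made to hold RNAs this short.

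Ribosomal protein and translation factor genes, a class known for starts in pyrimidines, were mostly not called at 48 h against control; their starts were not read here. Of 74 ribosomal protein genes 4 fell and 0 rose (median log2 fold change -0.03), beside 15.2% called lower and 13.3% called higher over all genes, and some have near-identical copies that the counting could split. Of 14 tested translation factors of this type 1 fell and 0 rose (median -0.06). The one that fell was PABPC1, which binds poly(A) tails (-0.12 ± 0.03, limma adjusted p = 0.0315). EEF1D (-0.16 ± 0.05) lay toward the low end, and RACK1 (0.16 ± 0.07) and TPT1 (0.09 ± 0.08) were at the high end, none of these 3 called.

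Of 19 factors of nonsense-mediated decay, 3 were called higher at 48 h against control, 1 was called lower and 15 were not called (median log2 fold change -0.07). Over all genes 13.3% were called higher and 15.2% lower, so the count of higher calls is near the background. DCP1A, a subunit of the decapping complex, rose by 0.28 ± 0.07 on the log2 scale (limma adjusted p = 0.0171), at 16.3 FPKM at 48 h and 13.2 FPKM in control. UPF1, the helicase at the centre of the pathway, rose by 0.23 ± 0.06 (limma adjusted p = 0.0282), at 10.5 FPKM at 48 h and 8.76 FPKM in control. UPF3B, which bridges UPF proteins and the exon junction complex, fell by 0.23 ± 0.04 (adjusted p = 0.00544), at 16.3 FPKM at 48 h and 19.3 FPKM in control. MAGOH, of the exon junction complex, had the lowest value (-0.29 ± 0.10) and was not called (adjusted p = 0.0522).

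NEAT1 and MALAT1 were not called in any of the 3 comparisons. NEAT1 (ENSG00000245532, chr11:65422774-65445540, plus strand) stood at 6.92, 5.84 and 5.99 FPKM in control, 5.86, 6.09 and 6.73 FPKM at 24 h and 5.46, 5.74 and 6.60 FPKM at 48 h, and all groups overlapped. The log2 fold change at 48 h against control was -0.06 ± 0.08 (95% interval -0.25 to 0.12; limma adjusted p = 0.595). MALAT1 (ENSG00000251562, chr11:65497688-65506516, plus strand) stood at 34.3, 34.2 and 38.4 FPKM in control, 37.0, 37.0 and 39.6 FPKM at 24 h and 36.4, 37.1 and 38.2 FPKM at 48 h. Its groups overlapped too, because 1 control library lay above all those at 48 h, and the log2 fold change was 0.06 ± 0.05 (95% interval -0.06 to 0.18; limma adjusted p = 0.413).

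The level of NEAT1 was 0.150 to 0.173 times that of MALAT1 at 48 h and 0.156 to 0.201 times in control. The short and long forms of NEAT1 share their 5′ part, and a value per gene does not separate them. The ratio to MALAT1 therefore holds for the length of the long form alone. RN7SL1, an abundant RNA without a poly(A) tail that has near-identical copies and is uncertain, varied from 31.8 to 199.2 FPKM between libraries. It averaged 135.3 FPKM at 48 h and 94.3 FPKM in control, with no call (log2 fold change 0.47 ± 0.41, limma adjusted p = 0.423). At 24 h it averaged 50.8 FPKM, and at 48 h against 24 h it was called higher (1.45 ± 0.41, adjusted p = 0.0248). Its part in the values of NEAT1 and MALAT1 was not tested.

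Genes for paraspeckle proteins at 48 h against control had 10 of 21 called lower, 1 called higher and 10 not called. Over all genes 15.2% were called lower and 13.3% higher, and the median log2 fold change was -0.09 for the list and -0.02 for all genes. All 21 lay above 5 FPKM in every library. In a fit to the 7384 genes that passed a filter at 5 FPKM, 1614 were called lower and 1320 higher. PSPC1, a partner of the core proteins, stood at 15.2 FPKM at 48 h and 19.8 FPKM in control (log2 fold change -0.36 ± 0.05, limma adjusted p = 0.00109). The one that rose was TARDBP, which encodes TDP-43 (0.11 ± 0.03, adjusted p = 0.0192), while SMARCA4 had the highest value (0.16 ± 0.10) and was not called. SFPQ and NONO, the core proteins needed for assembly and named for that role after their values were seen, had log2 fold changes of -0.17 ± 0.04 (adjusted p = 0.00757) and 0.09 ± 0.03 (adjusted p = 0.0776).

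MIR22HG (ENSG00000186594, chr17:1711493-1717174, minus strand) had the highest log2 fold change of the 8 at 48 h against control and was not called. It stood at 5.72, 5.58 and 5.53 FPKM in control, 5.82, 5.63 and 5.67 FPKM at 24 h and 5.77, 6.60 and 6.27 FPKM at 48 h. All 3 libraries at 48 h were higher than all 3 of control, the first of them by little, and overlapped with those at 24 h. The log2 fold change was 0.12 ± 0.05 (95% interval 0.01 to 0.23; limma adjusted p = 0.0884) on 303 to 451 fragments a library. With median-of-ratios scaling it was 0.15 and called (adjusted p = 0.0391), as it was without the first library at 48 h (0.17, adjusted p = 0.0376).

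The microRNAs that MIR22HG carries are shown with their seeds, bases 2 to 8, in capitals, because it is through them that the host is best known. The sequences are those of RefSeq (GRCh38.p14), on the minus strand of chromosome 17, at chr17:1713914-1713935 for the 3p arm and chr17:1713952-1713973 for the 5p arm.
hsa-miR-22-3p: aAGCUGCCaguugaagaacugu
hsa-miR-22-5p: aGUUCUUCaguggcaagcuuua
The arms have different seeds, and no row for miR-22 was matched in the table, so its level is not analysed here.

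Of 11 other microRNA host transcripts on a list, 7 were tested, and at 48 h against control 2 rose, 1 fell and 4 were not called, beside 28.5% called over all genes. MIR210HG, host of the hypoxia-induced miR-210, averaged 3.95 FPKM at 48 h and 1.33 FPKM in control (log2 fold change 1.10 ± 0.12, limma adjusted p = 0.000328). MIR3142HG, host of miR-146a, averaged 10.8 FPKM at 48 h and 4.74 FPKM in control (1.04 ± 0.12, adjusted p = 0.000431). MIR17HG, host of the miR-17-92 cluster, averaged 3.84 FPKM at 48 h and 5.37 FPKM in control (-0.40 ± 0.06, adjusted p = 0.00208).

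SNHG5 and H19 lay below the filter and were not tested with the 8. SNHG5 (ENSG00000203875, chr6:85660950-85678748, minus strand) had 58 to 102 fragments a library. It stood at 0.307, 0.230 and 0.337 FPKM in control, 0.341, 0.260 and 0.224 FPKM at 24 h and 0.320, 0.353 and 0.363 FPKM at 48 h, with overlapping groups. The smallest length that made its values whole fragments was 12604 bases, 4.49 times the 2806 bases of exon in GENCODE 29. If all its fragments were credited to the GENCODE 29 length, its means would be 1.31, 1.24 and 1.55 FPKM at 0, 24 and 48 h. Without a filter on low values the log2 fold change at 48 h against control was 0.06 (limma adjusted p = 0.652).

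H19 (ENSG00000130600, chr11:1995176-2001470, minus strand) had 1, 1 and 2 fragments in the control libraries, 2, 1 and 0 at 24 h and 0 in each library at 48 h. A count of 0 allows up to 3 fragments, or 0.0452 to 0.0510 FPKM in the libraries at 48 h, so a difference was not detectable at this depth. IGF2, the imprinted growth factor gene beside H19, was also low, at 0.190 to 0.642 FPKM. The H19-binding proteins IGF2BP1 (-0.02 ± 0.09), IGF2BP2 (-0.06 ± 0.07) and IGF2BP3 (0.03 ± 0.10) were tested at 48 h against control and not called.

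After 24 h with XD23, 0 of the 8 were called against control by limma, 0 had an unadjusted p under 0.05, and voom on recovered fragments called 0. Over all genes 0.00732% were called, 1 of 13657. The adjusted p of the 8 ran from 0.74 to 0.994. The log2 fold changes were 0.09 ± 0.05 for SNHG1 and for MALAT1 and 0.12 ± 0.07 for GAS5, and 7 of the 8 were above 0. Of 74 ribosomal protein genes 71 were above 0 as well and 3 below, while the median of all genes tested was -0.02. Without the third 24 h library GAS5 was at 0.03 and SNHG1 at 0.03. Of the 20 other snoRNA hosts 0 were called at 24 h by limma and 2 had an unadjusted p under 0.05. Over all 13657 genes 1015 had an unadjusted limma p under 0.05 in this comparison.

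The genes beside the 10 were mostly not called at 48 h against control, with 1 of 11 tested lower and 0 higher. Over all genes 15.2% were called lower and 13.3% higher, so 1 of 11 is near the background. The gene called lower was SLC3A2, which encodes the heavy chain of amino acid transporters and starts 187 bases from the start of SNHG1 on the other strand. It averaged 28.3 FPKM at 48 h and 31.3 FPKM in control (log2 fold change -0.14 ± 0.04, limma adjusted p = 0.0259). The other extremes, none called, were EPB41L4A (0.25 ± 0.09), SYNCRIP beside SNHG5 (0.18 ± 0.06) and TRNAU1AP beside SNHG12 (-0.16 ± 0.08). In GENCODE 29, ZBTB37, TRNAU1AP, EPB41L4A and WDR81 overlap GAS5, SNHG12, EPB41L4A-AS1 and MIR22HG on the other strand. The counting is not stated to use strand, so reads from such overlaps cannot be told apart.

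Among 12 tested lncRNAs of another list, named for their common use in this field, 1 rose, 1 fell and 10 were not called at 48 h against control. In that comparison 28.5% of all genes and 18.1% of tested lncRNA genes were called. NORAD averaged 174.0 FPKM at 48 h and 150.7 FPKM in control (0.21 ± 0.04, limma adjusted p = 0.00581), and THAP9-AS1 11.7 FPKM at 48 h and 14.1 FPKM in control (-0.24 ± 0.06, adjusted p = 0.015). PVT1 (-0.21 ± 0.07) and HOTAIR (0.14 ± 0.11) were the other extremes and were not called.

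The protein-coding genes whose log2 values followed each RNA most closely over the 9 libraries were found among 6576 genes that averaged 5 FPKM or more. Pearson's r is given as a description, since the 9 libraries share their groups and depths. For SNHG1 they were ENOPH1, an enzyme of methionine salvage (r = 0.997), PPIF, the mitochondrial cyclophilin (0.995), and EIF1B (0.994). ENOPH1 averaged 33.9 FPKM in control, 35.5 FPKM at 24 h and 25.1 FPKM at 48 h. For GAS5 they were H2AZ1, a histone variant (0.985), COX7A2, a subunit of cytochrome oxidase (0.983), and RAN, the GTPase of nuclear transport (0.982). For MIR22HG they were SESN2, a stress-induced sestrin (0.956), CCNYL1 (0.950) and MSL1 (0.948). The closest for MALAT1 was MAT2B (0.903) and for NEAT1 TIAL1 (0.939), and MALAT1 had the lowest best match of the 8.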

How the data were processed

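The authors deposited 1 table of FPKM values (fragments scaled to gene length and library depth) for 36810 genes in 9 libraries, with replicates kept apart. The submitters' processing notes name the build hg38 and the tools HISAT2, Subread, featureCounts and DESeq2. Their settings, their versions and the gene annotation were not given in the sources used here. Per the labels' protocols, RNA was captured on oligo(dT) beads from Trizol extracts and made into paired-end libraries by random priming.

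Fragments were worked back from the FPKM with GENCODE 29 exon lengths, which gave whole numbers (tolerance 0.001) for 20926 genes, or 58.8% of 35585. For 15883 genes the smallest length giving whole fragments was used instead, and 1 gene was not recovered. Totals of 18341542 to 22901830 fragments set the precision. The floor of 3 fragments covers counting error only. The 95% intervals come from the limma fit and rest on the spread between libraries.

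Genes with at least 1 FPKM in at least 3 libraries were tested with limma 3.58.1 (R 4.3.3) on log2(FPKM + 1), with 1 mean per group, all 9 libraries, a trended prior and 6 residual degrees of freedom. Tests were two-sided, with Benjamini-Hochberg adjustment over 13657 genes. The pseudocount of 1 understates changes of low genes. The script was tested on simulated data. Alternatives changed the pseudocount (0.1, 0.5), filter (none, 5 FPKM), scaling, trend, weights, libraries and model (replicate block, voom).

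The 10 RNAs and all lists were chosen with earlier results of these data known. From each list of over 10 genes the rule named the 2 highest and 2 lowest log2 fold changes at 48 h against control, and other names are marked where they stand. The 3 closest protein-coding genes by Pearson's r could also be named for each tested RNA. Some genes that this rule names are not reported here.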

Additional observations from a re-analysis of the deposited data

Results flagged for a closer look

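The difference between the 48 h and the 24 h effect was past the threshold for SNHG1 and GAS5 of the 8 RNAs tested, by the direct contrast of the 2 times in limma. SNHG1 differed by -0.51 on the log2 scale (adjusted p = 0.00024), with all 3 libraries at 48 h below all 3 at 24 h. GAS5 differed by -0.28 (adjusted p = 0.0221), again with no overlap. Over all 13657 genes 32.3% were called in this contrast, 16.3% as lower, so 2 of 8 is near the background. Both RNAs had their highest value in the third 24 h library, and without it the differences were -0.46 for SNHG1 and -0.18 for GAS5, both still called. Of 20 alternatives, 4 ended the call of GAS5, with limma adjusted p of up to 0.0743, while SNHG1 kept its call in all.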

How the results depend on the processing

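Of 477 recomputed log2 fold changes of the 8 RNAs, 449 kept their direction and their side of the threshold, 10 became called, 4 lost a call and 14 changed sign. None of the 14 was called in the main result, and the cause of each change was not tested. At 48 h against control, without control replicate 1, NEAT1 was at 6e-04, SNHG12 at -0.0157 and SNHG15 at 0.0107, and without 48 h replicate 2 SNHG12 was at -0.0048 and SNHG15 at 0.0038. At 24 h against control NEAT1 was at 0.0171 with median-of-ratios scaling, 0.0173 with quantile normalization, 0.0616 without control replicate 1, and 0.0329 and 0.0095 without 24 h replicate 1 and 2. SNHG15 was at -0.0031 with array weights and -0.0336 without 24 h replicate 3. At 48 h against 24 h MALAT1 was at 0.0347 with quantile normalization and 0.0086 without 24 h replicate 3. When 1 library was left out, the values at 48 h against control were -0.1328 to 6e-04 for NEAT1, -0.0157 to 0.025 for SNHG12 and -0.1025 to 0.0107 for SNHG15, those at 24 h against control -0.0528 to 0.0616 for NEAT1 and -0.0336 to 0.111 for SNHG15, and those at 48 h against 24 h -0.0419 to 0.0086 for MALAT1. SNHG12 had no value under the filter of 5 FPKM.

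The count of genes called at 48 h against control was 3891, and 2551 to 5136 when 1 library was left out, lowest without 48 h replicate 2. At 48 h against 24 h these counts were 4415 and 2946 to 4600. At 24 h against control, where 1 gene was called, the count was 3 with no filter, 4 with quantile normalization, 46 with array weights and 0 with no trend, with only the groups compared, with the replicate block and with voom, and 0 to 2 when 1 library was left out. Pair correlations of libraries with the same number ran from -0.057 to 0.239, highest between the third libraries at 24 h and 48 h. Of the 9 libraries, 4 were closest to their own number. With the replicate block the SE at 48 h against control was 0.0362 for MALAT1 and 0.042 for EPB41L4A-AS1. The main fit gave 0.0521 and 0.0696. For MIR22HG the SE rose, from 0.0484 to 0.0532. With the replicate block the counts of genes called were 3733 at 48 h against control, 0 at 24 h against control and 4344 at 48 h against 24 h, and EPB41L4A-AS1 was called at 48 h against 24 h (adjusted p = 0.012). Depth limits H19 (0 to 2 fragments a library) and SNHG5 (58 to 102).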
